A study of Mus musculus with 15 samples.

Results

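Stromal cells positive for an Il33 reporter in white adipose tissue (WAT) and in lung were compared with reporter-negative WAT stromal cells. The comparison took 9 of the 15 libraries of the series, namely 3 of Il33+ WAT-MSC, 3 of lung Il33+ MSC and 3 of Il33- WAT-MSC, all chosen by their sample labels. All 3 populations came from mice heterozygous for an Il33-citrine reporter on a C57BL/6 background, so 1 of their alleles carried the reporter, the controls included, and citrine fluorescence stood for activity of the Il33 locus. The WAT-MSC, labelled mesenteric, were sorted as PDGFRα+, CD34+, Sca1+ and podoplanin+ cells that lacked the lineage markers, CD45, CD31, EpCAM and CD24, and were divided by citrine, and the lung MSC were sorted as citrine-positive stroma. No Il33- stromal population of lung was analysed here, so every difference between lung Il33+ MSC and the Il33- cells holds both the tissue and the reporter state, which cannot be told apart in that contrast. Whether a sorted population holds 1 kind of stromal cell or several is not given by a bulk library. Fewer cells of a type and less RNA per cell cannot be told apart either.

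IL-33 is a nuclear cytokine of the IL-1 family that is released from damaged or stressed cells and acts through the receptor ST2 on group 2 innate lymphoid cells (ILC2), regulatory T cells and mast cells. In adipose tissue its main sources are stromal cells around vessels, and in lung both stroma and epithelium make it. Adventitial stroma of many organs carries the progenitor marker Pi16, whereas stromal cells of adipose tissue that are committed to the adipocyte fate carry genes of lipid storage and of the capillary basement membrane.

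Expression was given as RPKM, a read count scaled to transcript length and to the mapped reads of the library, and was summed here over the transcripts of each gene symbol. The 9 libraries held 43825859 to 57320368 alignments (median 53038567), so none was much shallower than the rest, and the read counts behind each value were not used. Differences were fitted with limma on log2(RPKM + 1) for 8879 of 10222 genes, those that reached 1 RPKM in 3 or more of the 9 libraries. P-values were adjusted by the Benjamini-Hochberg method over all of them, and 0.05 was the threshold. All log2 differences below are on that scale, which understates the change of genes at low RPKM. Genes such as Elfn1, Shisa3 and Art4 reached the filter only through the libraries in which they are high. Unless another contrast is named, a difference is the mean of the WAT and lung Il33+ groups minus the Il33- group, with equal weight for each tissue. The 3 replicates of a population came from independent experiments, and p-values measure the spread between these libraries. Correlations between libraries ranged from 0.89 to 0.954 within populations (9 pairs) and from 0.804 to 0.928 between them (27 pairs). Of the 9 libraries, Il33- WAT-MSC replicate 1 had the largest share of genes at 0, at 7.03%. It also had the lowest summed RPKM, 134069 against 163131 to 198732 in the others.

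The labels were checked against the sort gene first. Il33 was at 6.76, 4.31 and 4.49 RPKM in the Il33- libraries, 38.7, 78.5 and 41.9 RPKM in Il33+ WAT-MSC and 47, 43 and 55.7 RPKM in lung Il33+ MSC. The 6 Il33+ libraries lay above all 3 Il33- libraries (log2 difference 3.04, standard error 0.24, limma adjusted p = 9.36e-06). An exact two-sided permutation test over the 84 splits of 6 against 3 libraries gave p = 0.0238, the smallest p it allows. The cells were sorted on a reporter of this gene, so its difference is a check and not a result. The Il33 level differed little between tissues, with a lung minus WAT difference of -0.06 (95% interval -0.66 to 0.54).

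The sorted stroma carried its defining genes in every library. Pdgfra was at 79.5, 122 and 112 RPKM in the Il33- libraries, 89.8, 53.3 and 69.7 RPKM in Il33+ WAT-MSC and 60.3, 66.3 and 40.6 RPKM in lung Il33+ MSC, a difference that did not pass the test (log2 difference -0.73, standard error 0.22, limma adjusted p = 0.0769). Epcam stayed at or below 0.28 RPKM in all 9 libraries. The list of 13 stromal and sort markers had 2 genes higher and 2 lower in the pooled comparison, with summed levels of 4469 to 6150 RPKM in the Il33- libraries, 5841 to 7610 RPKM in Il33+ WAT-MSC and 7023 to 8984 RPKM in lung Il33+ MSC. Col1a1 and Col1a2 were the 2 higher genes, and Fap and Thy1 the 2 lower ones, at -1.44 and -1.27. All 4 passed in lung and not in WAT.

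Markers of other cell types were not level between the populations. The summed leukocyte and macrophage list (15 of 24 genes listed) was at 43.8 to 99.2 RPKM in the Il33- libraries, 14.1 to 36.6 RPKM in Il33+ WAT-MSC and 276 to 333 RPKM in lung Il33+ MSC. The lung epithelial list (18 genes) reached 232 to 584 RPKM in lung Il33+ MSC, against 58.5 to 105 RPKM and 76.9 to 151 RPKM in Il33- and Il33+ WAT-MSC. In the sorted lung epithelial cells the same list summed to at least 164700 RPKM. The endothelial list (18 genes) was at 16.3 to 35.9, 27.2 to 51.6 and 64.0 to 101 RPKM in the same order, against at least 943.9 RPKM in the sorted endothelial cells. The mesothelial list (14 of 16 genes) was at 42.9 to 65.3 RPKM in the Il33- libraries, 69.5 to 197 RPKM in Il33+ WAT-MSC and 33.4 to 35.4 RPKM in lung. The pericyte and smooth muscle list (12 of 15 genes) was at 6.98 to 19.7, 34.9 to 41.8 and 109.7 to 117 RPKM, and Abcc9, described below, made up most of its level in the lung libraries. The adipocyte list (7 of 14 genes) was at 5.2 to 37.5, 8.32 to 17.8 and 8.62 to 9.18 RPKM, and the Schwann and neural list (4 of 12 genes) at 293 to 352, 517 to 691 and 512 to 599 RPKM. No listed marker was at 0 in all 9 libraries. In the pooled comparison below, 5 of 11 tested endothelial genes were called higher and 0 lower, Cdh5, Erg, Esam and Cd93 included. For lung epithelial genes the higher and lower calls were 3 and 0 of 12, and for leukocyte genes 3 and 0 of 14. They were 1 and 1 of 13 mesothelial, 2 and 1 of 8 pericyte and 2 and 0 of 3 Schwann genes. Over all genes tested, 3.73% were higher and 2.92% lower. The part of these cell types in the differences below was not tested.

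**Figure D1:**
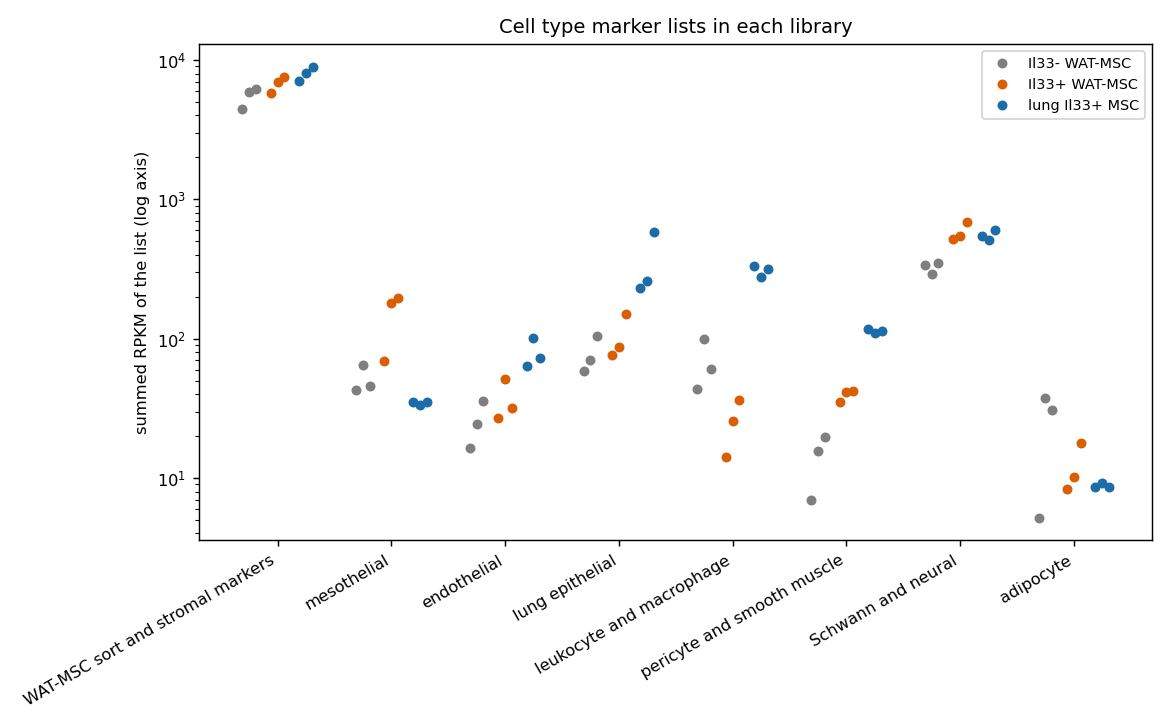
Summed RPKM of each cell type marker list (log axis) in the 3 libraries of Il33- WAT-MSC (grey), Il33+ WAT-MSC (orange) and lung Il33+ MSC (blue), 1 point per library. The lung libraries sit highest for the leukocyte and macrophage list (276 to 333 RPKM) and the lung epithelial list (232 to 584 RPKM), and the Il33+ WAT-MSC libraries sit highest for the mesothelial list (69.5 to 197 RPKM).

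In the pooled comparison, 590 of the 8879 genes passed the test (6.64%), 331 higher (3.73%) and 259 lower (2.92%) in Il33+ stroma. Of these, 314 higher genes (3.54% of all tested) and 250 lower genes (2.82%) differed from the Il33- cells in the same direction in WAT and in lung. The separate contrasts called 215 genes in WAT (2.42%), 129 higher (1.45%) and 86 lower (0.969%), and 821 in lung (9.25%), 467 higher (5.26%) and 354 lower (3.99%). Both contrasts use the same 3 Il33- libraries, so a library that stands apart there moves both, and no test of their overlap was made. Genes that passed in WAT and in lung in the same direction numbered 80 higher (0.901%) and 66 lower (0.743%), and for each of these 146 genes the 6 Il33+ libraries lay wholly on 1 side of the 3 Il33- libraries. Among all genes tested, 389 (4.38%) had every Il33+ library above the Il33- libraries and 441 (4.97%) had every Il33+ library below them. Genes with no overlap that also passed the pooled test with the same sign in both tissues numbered 407 (4.58%). The median difference of the 80 higher genes was 1.67 in WAT and 2.14 in lung, and that of the 66 lower genes -1.59 in WAT and -2.06 in lung, against medians of -0.0023 and -0.045 over all genes tested.

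These counts leaned on single libraries. Without Il33- replicate 2 or replicate 3, the pooled lower genes numbered 148 and 151, and the genes lower in each tissue 31 and 28. Without Il33+ WAT-MSC replicate 1 or replicate 3, the genes higher in each tissue numbered 53 and 40. Of the 80 higher genes 66, and of the 66 lower genes 42, passed the pooled test in all 19 alternative settings as well.

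**Figure D2:**
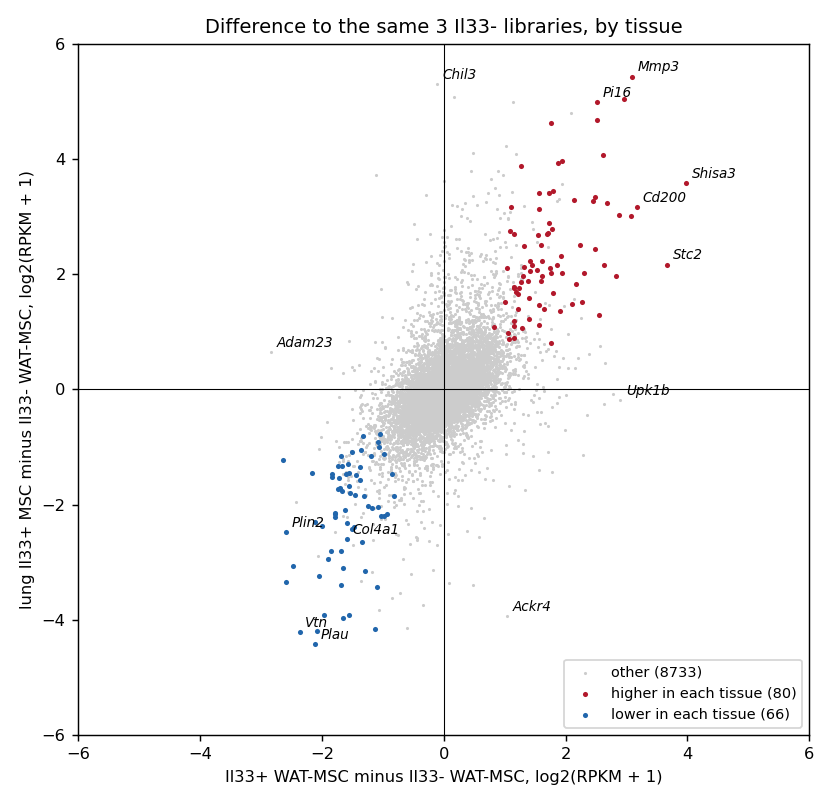
Difference of Il33+ WAT-MSC (horizontal axis) and of lung Il33+ MSC (vertical axis) to the same 3 Il33- WAT-MSC libraries, in log2(RPKM + 1), for each of 8879 genes. Red points mark the 80 genes that passed higher in each tissue and blue points the 66 that passed lower; the axes share their control libraries, so the slope of the cloud is no measure of likeness.

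The 14 leading genes in each direction were those, among genes past the pooled test with no overlap between Il33+ and Il33- libraries, whose smaller tissue difference was largest. They are taken here by what they encode and not by rank. Cd200, one of the higher genes, encodes a surface glycoprotein that restrains myeloid cells through its receptor. Cd200 was at 0.09, 2.71 and 1.8 RPKM in the Il33- libraries, 19, 21.1 and 17.8 RPKM in Il33+ WAT-MSC and 15.7, 18.1 and 24.5 RPKM in lung Il33+ MSC. The groups did not overlap (log2 difference 3.17, standard error 0.33, limma adjusted p = 6.95e-05), and the lung minus WAT difference was -0.01 (95% interval -0.84 to 0.81). C7, a component of the terminal complement pathway, was among the most abundant of the leading genes, at 30.1, 29.3 and 39.5 RPKM in the Il33- libraries, 359.9, 143 and 291 RPKM in Il33+ WAT-MSC and 239, 298 and 288 RPKM in lung Il33+ MSC. Each Il33+ library of both tissues held more than 3 times the highest Il33- value (log2 difference 2.95, standard error 0.26, limma adjusted p = 1.93e-05). Art4, which encodes the ADP-ribosyltransferase that carries the Dombrock blood group, was at 0, 0.5 and 0.6 RPKM in the Il33- libraries, 7.28, 6.16 and 8.33 RPKM in Il33+ WAT-MSC and 16.2, 24.2 and 25.5 RPKM in lung Il33+ MSC and was nearly missing from the Il33- cells (log2 difference 3.35, standard error 0.25, limma adjusted p = 7.52e-06). Tspan18, a tetraspanin, was at 5.77, 9.13 and 7.3 RPKM in the Il33- libraries, 37.7, 58 and 43.2 RPKM in Il33+ WAT-MSC and 101, 78.6 and 72.4 RPKM in lung Il33+ MSC (log2 difference 2.92, standard error 0.20, limma adjusted p = 4.41e-06).

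Shisa3, which retains Wnt and FGF receptors inside the cell, was at 0.06, 0.01 and 0.14 RPKM in the Il33- libraries, 25.6, 9.47 and 16.2 RPKM in Il33+ WAT-MSC and 10.9, 15.1 and 9.92 RPKM in lung Il33+ MSC. The Il33- libraries were all close to 0, and no other gene named here had a larger smaller-tissue difference (log2 difference 3.78, standard error 0.29, limma adjusted p = 7.93e-06). Chrdl1, a secreted BMP antagonist of the chordin family, was at 1.17, 0.87 and 0.84 RPKM in the Il33- libraries, 11.9, 9.28 and 13.9 RPKM in Il33+ WAT-MSC and 14.9, 19.2 and 18.6 RPKM in lung Il33+ MSC (log2 difference 2.96, standard error 0.22, limma adjusted p = 5.85e-06). Stc2, which encodes the glycoprotein stanniocalcin-2 and inhibits the IGF-binding protein protease PAPP-A, went the other way between tissues. Stc2 was at 0.34, 0.67 and 1.29 RPKM in the Il33- libraries, 22.1, 12.2 and 33.4 RPKM in Il33+ WAT-MSC and 7.39, 5.35 and 7.72 RPKM in lung Il33+ MSC, with all WAT libraries above all lung libraries (log2 difference 2.92, standard error 0.31, limma adjusted p = 7.07e-05).

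Mmp3 encodes stromelysin-1, a protease of proteoglycans and basement membrane. Mmp3 was at 0.49, 3.16 and 1.63 RPKM in the Il33- libraries, 24.3, 15 and 23.9 RPKM in Il33+ WAT-MSC and 103, 113 and 109 RPKM in lung Il33+ MSC, in 3 separate bands (log2 difference 4.26, standard error 0.28, limma adjusted p = 4.13e-06). Pi16, the peptidase inhibitor that marks adventitial fibroblasts, was already present in Il33- cells and was at 10.1, 12.7 and 14.4 RPKM in the Il33- libraries, 81, 60.8 and 85.7 RPKM in Il33+ WAT-MSC and 352, 426 and 495 RPKM in lung Il33+ MSC (log2 difference 3.75, standard error 0.19, limma adjusted p = 2.59e-07). Omd and Fmod, the keratan sulphate proteoglycans osteomodulin and fibromodulin, were higher in each tissue. Omd was at 1.83, 1.12 and 1.29 RPKM in the Il33- libraries, 9.99, 17.9 and 10.6 RPKM in Il33+ WAT-MSC and 12.8, 11.3 and 11.9 RPKM in lung Il33+ MSC (log2 difference 2.46, standard error 0.24, limma adjusted p = 3.53e-05). Fmod was at 7.76, 10.7 and 7.74 RPKM in the Il33- libraries, 40.7, 30.3 and 69.5 RPKM in Il33+ WAT-MSC and 45.3, 52.9 and 64.7 RPKM in lung Il33+ MSC (log2 difference 2.37, standard error 0.25, limma adjusted p = 6.95e-05). Among the remaining leading genes, Abcc9, the SUR2 subunit of an ATP-sensitive potassium channel, was at 1.29, 1.7 and 1.77 RPKM in the Il33- libraries, 19.1, 17.6 and 20.7 RPKM in Il33+ WAT-MSC and 93, 77 and 83.8 RPKM in lung Il33+ MSC (log2 difference 4.01, standard error 0.18, limma adjusted p = 1.01e-07). Meox2, a homeobox transcription factor of mesoderm, was at 3.44, 0.94 and 1.39 RPKM in the Il33- libraries, 18.2, 10.8 and 13.7 RPKM in Il33+ WAT-MSC and 24.7, 30.6 and 21.8 RPKM in lung Il33+ MSC (log2 difference 2.86, standard error 0.28, limma adjusted p = 3.72e-05).

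Of the leading lower genes, Plin2 encodes perilipin-2, which coats lipid droplets. Plin2 was at 24, 72.1 and 79 RPKM in the Il33- libraries, 8.13, 6.37 and 9.02 RPKM in Il33+ WAT-MSC and 8.87, 10.6 and 6.41 RPKM in lung Il33+ MSC. All 6 Il33+ libraries lay between 6.37 and 10.6 RPKM whatever the tissue (log2 difference -2.53, standard error 0.33, limma adjusted p = 0.000398). Agt, the angiotensinogen precursor that adipose stroma and adipocytes secrete, was at 6.28, 14.8 and 14.2 RPKM in the Il33- libraries, 1.01, 0.39 and 2.61 RPKM in Il33+ WAT-MSC and 0.88, 0.24 and 0.28 RPKM in lung Il33+ MSC (log2 difference -2.77, standard error 0.36, limma adjusted p = 0.000398). Tusc5 (Trarg1), a protein of glucose transporter vesicles in adipocytes, was at 1.89, 12.4 and 11.3 RPKM in the Il33- libraries, 0.43, 0.79 and 1.53 RPKM in Il33+ WAT-MSC and 0.16, 0 and 0.01 RPKM in lung Il33+ MSC (log2 difference -2.48, standard error 0.44, limma adjusted p = 0.00356); in WAT alone its difference of -2.07 did not pass (limma adjusted p = 0.0526). Trf, transferrin, was at 19.8, 75.8 and 75.2 RPKM in the Il33- libraries, 10.3, 14.1 and 13.2 RPKM in Il33+ WAT-MSC and 3.11, 13.7 and 3.51 RPKM in lung Il33+ MSC (log2 difference -2.41, standard error 0.45, limma adjusted p = 0.00543), and its WAT difference of -1.89 did not pass either (limma adjusted p = 0.0948). Both had a low value in Il33- replicate 1, as did Plin2 and Agt above and Bmper and Fam150b below. Exons of another annotated gene on the same strand cover 63.5% of the Trf exon bases, so its reads cannot be assigned with certainty.

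Vtn, vitronectin, an adhesion protein that binds the urokinase receptor and plasminogen activator inhibitor, was at 14.5, 24.4 and 20.7 RPKM in the Il33- libraries, 3.86, 2.59 and 2.59 RPKM in Il33+ WAT-MSC and 0.04, 0.12 and 0.13 RPKM in lung Il33+ MSC (log2 difference -3.29, standard error 0.25, limma adjusted p = 7.93e-06). Plau, urokinase itself, was at 57.1, 80.5 and 52.2 RPKM in the Il33- libraries, 19.3, 10.3 and 12.4 RPKM in Il33+ WAT-MSC and 2, 2.95 and 1.12 RPKM in lung Il33+ MSC (log2 difference -3.27, standard error 0.26, limma adjusted p = 9.36e-06). Both fell in steps from Il33- WAT to Il33+ WAT to lung without overlap. Bmper, a secreted BMP-binding regulator, was at 11.3, 27.1 and 31 RPKM in the Il33- libraries, 4.67, 3.31 and 5.4 RPKM in Il33+ WAT-MSC and 1.7, 1.07 and 1.39 RPKM in lung Il33+ MSC (log2 difference -2.64, standard error 0.30, limma adjusted p = 0.000149). Fam150b (Alkal2), a ligand of the receptor tyrosine kinases ALK and LTK, was at 7.05, 13.6 and 16.8 RPKM in the Il33- libraries, 1.81, 0.5 and 1.3 RPKM in Il33+ WAT-MSC and 0.18, 0.38 and 0.21 RPKM in lung Il33+ MSC (log2 difference -2.97, standard error 0.31, limma adjusted p = 7.07e-05). Its exons share 35.1% of their bases with Acp1 on the opposite strand, and the library kit does not mark strand. Ggt5, which converts leukotriene C4 to leukotriene D4, was at 14.8, 17.8 and 14.3 RPKM in the Il33- libraries, 4.01, 3.27 and 3.48 RPKM in Il33+ WAT-MSC and 1.63, 1.62 and 0.93 RPKM in lung Il33+ MSC (log2 difference -2.33, standard error 0.23, limma adjusted p = 3.72e-05).

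Ret, the receptor for the GDNF family, was at 7.34, 6.87 and 6.94 RPKM in the Il33- libraries, 1.36, 0.55 and 1.71 RPKM in Il33+ WAT-MSC and 0.01, 0.01 and 0.11 RPKM in lung Il33+ MSC. The 3 Il33- values were close together and every Il33+ value was at or below 1.71 RPKM (log2 difference -2.43, standard error 0.26, limma adjusted p = 8.27e-05). P2ry1, a receptor for ADP, was at 15.9, 22.6 and 22.3 RPKM in the Il33- libraries, 3.76, 3.27 and 6.7 RPKM in Il33+ WAT-MSC and 0.46, 0.44 and 0.26 RPKM in lung Il33+ MSC (log2 difference -2.95, standard error 0.26, limma adjusted p = 2.05e-05), with 23.1% of its exon bases under a gene on the opposite strand. Psat1, an enzyme of serine synthesis, was at 45.1, 43.8 and 53.1 RPKM in the Il33- libraries, 14.3, 5.69 and 13.5 RPKM in Il33+ WAT-MSC and 0.87, 1.94 and 2.32 RPKM in lung Il33+ MSC (log2 difference -3.13, standard error 0.29, limma adjusted p = 2.67e-05). Elfn1, a synaptic adhesion protein, was at 8.51, 3.22 and 4.68 RPKM in the Il33- libraries, 0.37, 0.3 and 0.6 RPKM in Il33+ WAT-MSC and 0.34, 0.15 and 0.22 RPKM in lung Il33+ MSC (log2 difference -2.21, standard error 0.29, limma adjusted p = 0.000478). Every Il33+ value of Elfn1 lay below 1 RPKM, so only the Il33- libraries brought it past the filter. Adap2, a GTPase-activating protein for ARF6, was at 4.66, 7.86 and 13.7 RPKM in the Il33- libraries, 0.62, 1.45 and 1.93 RPKM in Il33+ WAT-MSC and 0.75, 0.1 and 1.79 RPKM in lung Il33+ MSC (log2 difference -2.18, standard error 0.37, limma adjusted p = 0.00291). In the 19 alternative settings, the 28 leading genes and Il33 were past the threshold in their direction in 544 of 545 cases, and the other case was Trf. Settings in which a gene did not reach the filter are not among these cases. Elfn1 was tested in 15 settings, and Tusc5 and Adap2 in 18 each. The leading genes were chosen from these same libraries for passing the pooled test without overlap, so this count is no independent test of them.

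**Figure D3:**
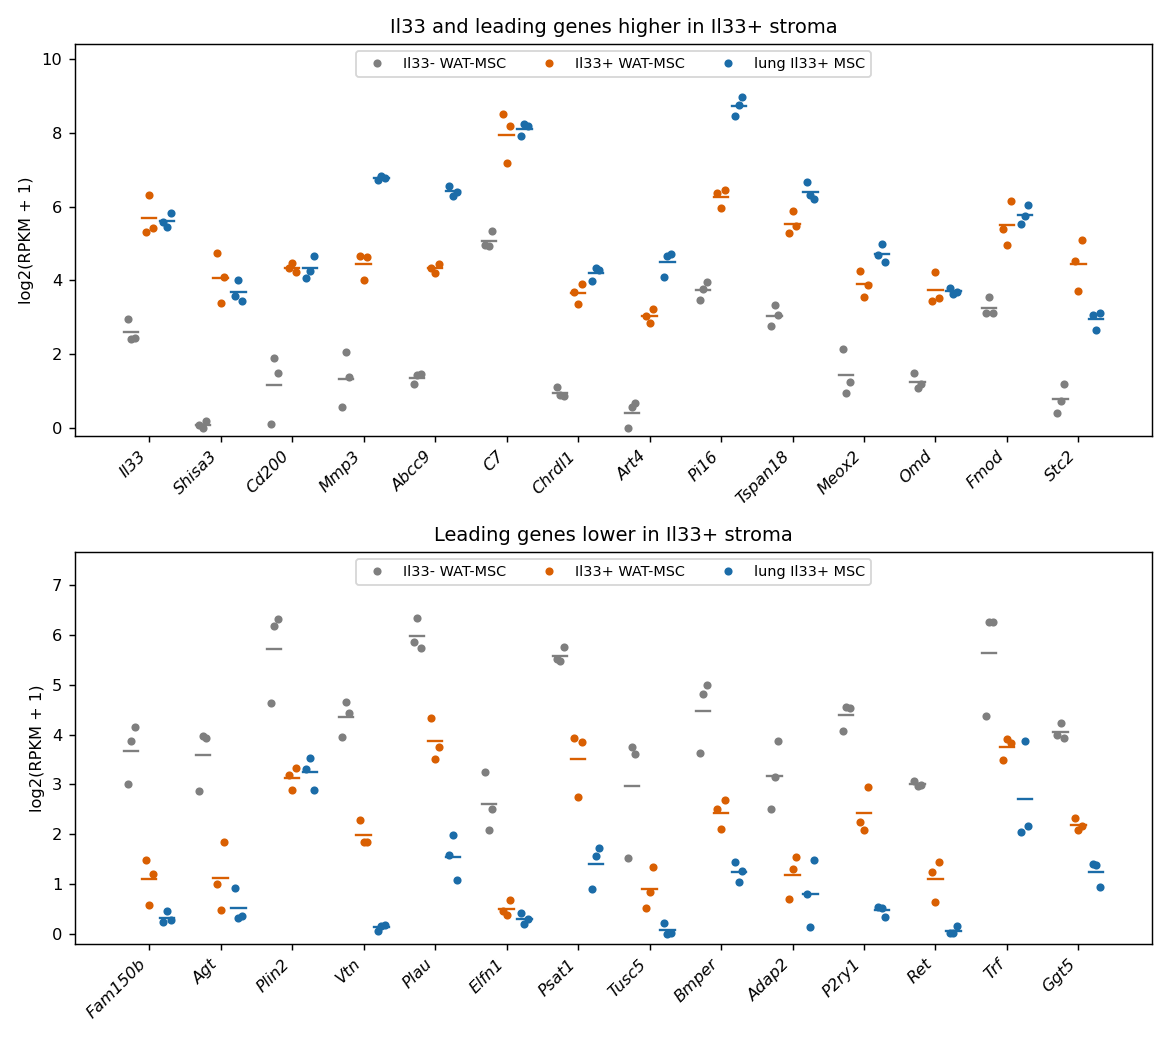
Level of Il33 and 27 of the 28 leading genes in log2(RPKM + 1) in each library of Il33- WAT-MSC (grey), Il33+ WAT-MSC (orange) and lung Il33+ MSC (blue), with a line at each group mean (n = 3). By the rule that chose them no Il33+ point reaches the grey points of its gene; for Shisa3, Cd200, Omd and Plin2 the orange and blue groups lie together, whereas for Mmp3, Pi16, Vtn and Plau they are apart.

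The letters before the start site are shown for Il33 and 5 of the leading genes, as examples of promoters with a motif match. RefSeq's promoter table (GRCm38.p6, the build named mm10 in the submitters' processing notes) held 12 of the 15 higher genes, Il33 included, and 9 of the 14 lower genes. The 250 bases before the start are shown 5′ to 3′ on the strand of the gene. Capitals mark matches to any of 4 motifs on either strand, and overlapping matches run together. The TATA box was searched as TATAAA. The AP-1 site was searched as TGA, any base and TCA. The CCAAT box was searched as the 5 letters of its name. The NF-kB pattern was searched as GGGNNNNNCC, a loose form of the site. Il33 has 2 listed starts, of which the downstream one (chr19:29945540-29945789, plus strand) is shown because a TATA box begins 29 bases before it. Mmp3 (chr9:7445572-7445821, plus strand) had an AP-1 match 46 bases and a TATA match 7 bases before its start, and Pi16 (chr17:29318632-29318881, plus strand) a CCAAT box at 64 bases. Meox2 (chr12:37108290-37108539, plus strand) had a TATA box at 29 bases. Of the lower genes, Agt (chr8:124569707-124569956, minus strand) had a TATA box at 30 bases and 2 overlapping NF-kB matches. Plin2 (chr4:86670060-86670309, minus strand) had a CCAAT box at 73 bases. A TATA or CCAAT match was also found before C7, Stc2, Vtn and Psat1, and none before Shisa3 or Cd200.
Il33: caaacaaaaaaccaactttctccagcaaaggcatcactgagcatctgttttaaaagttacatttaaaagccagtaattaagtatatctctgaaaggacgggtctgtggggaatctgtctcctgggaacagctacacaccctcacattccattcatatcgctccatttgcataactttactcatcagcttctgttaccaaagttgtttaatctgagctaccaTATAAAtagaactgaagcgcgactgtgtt
Mmp3: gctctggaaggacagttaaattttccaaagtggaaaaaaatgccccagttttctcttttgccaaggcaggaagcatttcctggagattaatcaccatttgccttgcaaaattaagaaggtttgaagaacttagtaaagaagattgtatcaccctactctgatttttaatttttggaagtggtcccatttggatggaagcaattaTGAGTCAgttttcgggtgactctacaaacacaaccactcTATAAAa
Pi16: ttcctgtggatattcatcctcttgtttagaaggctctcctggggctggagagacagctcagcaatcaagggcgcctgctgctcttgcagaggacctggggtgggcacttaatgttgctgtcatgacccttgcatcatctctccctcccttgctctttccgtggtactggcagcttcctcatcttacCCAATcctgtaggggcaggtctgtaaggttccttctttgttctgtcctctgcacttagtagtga
Meox2: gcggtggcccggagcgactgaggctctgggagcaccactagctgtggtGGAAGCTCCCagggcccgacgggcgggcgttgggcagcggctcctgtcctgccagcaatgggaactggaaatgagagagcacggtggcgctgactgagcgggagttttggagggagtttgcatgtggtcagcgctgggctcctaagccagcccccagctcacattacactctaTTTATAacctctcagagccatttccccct
Agt: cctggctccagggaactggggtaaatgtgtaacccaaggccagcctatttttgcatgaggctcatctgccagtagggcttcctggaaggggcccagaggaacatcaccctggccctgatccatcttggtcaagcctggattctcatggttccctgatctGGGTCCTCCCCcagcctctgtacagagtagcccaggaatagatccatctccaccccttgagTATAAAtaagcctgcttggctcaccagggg
Plin2: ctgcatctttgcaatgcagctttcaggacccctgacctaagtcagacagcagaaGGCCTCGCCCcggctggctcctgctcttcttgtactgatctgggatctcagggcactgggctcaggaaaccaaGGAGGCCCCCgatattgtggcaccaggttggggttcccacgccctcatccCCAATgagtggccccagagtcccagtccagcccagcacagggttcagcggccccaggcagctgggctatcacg

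Over the 77 promoters matched for 61 of the 80 genes higher in each tissue, a TATA box was found in 14.3%, an AP-1 site in 3.9%, a CCAAT box in 27.3% and the NF-kB pattern in 44.2%. Over the 64 promoters of 48 of the 66 lower genes the shares were 6.25%, 6.25%, 26.6% and 67.2%. Over the 8935 promoters of all genes tested they were 6.69%, 4.7%, 34.5% and 62.2%. These shares are descriptions of letters and were not tested.

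The lung minus WAT contrast tested whether the Il33+ populations differed. Its estimate does not use the Il33- libraries, but its error comes from the fit of all 9 libraries. It called 475 of 8879 genes (5.35%), 271 higher (3.05%) and 204 lower (2.3%) in lung. Of the 80 genes higher in each tissue, 25 (31.2%) also differed between tissues, 22 of them higher in lung, and of the 66 lower genes 21 (31.8%) did, 20 of them lower in lung. A gene enters these sets more easily when its lung level is far from the Il33- level, so these shares were not read against the 5.35%. The tissue difference passed for 10 of the 28 leading genes, 9 of which are given here. Pi16, Mmp3, Abcc9 and Art4 were higher in lung, by 2.47 (limma adjusted p = 3.76e-05), 2.34 (limma adjusted p = 0.000765), 2.09 (limma adjusted p = 6.38e-05) and 1.46 (limma adjusted p = 0.00872). Plau, Psat1, P2ry1 and Vtn were lower in lung, by -2.31 (limma adjusted p = 0.000438), -2.11 (limma adjusted p = 0.00175), -1.96 (limma adjusted p = 0.00137) and -1.86 (limma adjusted p = 0.00168). Stc2, higher in each tissue, was the one of the 9 whose difference to Il33- cells was larger in WAT, with a lung minus WAT value of -1.50 (limma adjusted p = 0.0247). The tissue difference did not pass for the other 18 leading genes. For 6 of these the unadjusted interval excluded 0. The values were 0.85 (95% interval 0.34 to 1.37) for Tspan18, 0.82 (95% interval 0.13 to 1.51) for Meox2, 0.56 (95% interval 0.02 to 1.10) for Chrdl1, -1.18 (95% interval -1.94 to -0.42) for Bmper, -1.04 (95% interval -1.70 to -0.39) for Ret and -0.95 (95% interval -1.51 to -0.39) for Ggt5. For the other 12 it spanned 0, with -0.40 (95% interval -1.12 to 0.33) for Shisa3, 0.15 (95% interval -0.49 to 0.79) for C7, -0.04 (95% interval -0.63 to 0.55) for Omd, 0.28 (95% interval -0.34 to 0.89) for Fmod, 0.11 (95% interval -0.71 to 0.93) for Plin2 and -0.20 (95% interval -0.93 to 0.53) for Elfn1. A tissue difference within the bounds that span 0 could not be told from none.

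A total of 16 gene lists described what else went with Il33, each beside the background of 3.73% of all genes higher and 2.92% lower and a median difference over all genes of -0.02. Counts are those of the pooled comparison unless a tissue is named, and a pooled call can rest on 1 tissue. Of 14 tested ILC2-niche factors, 4 were higher and 1 lower (median 0.61), with 1 higher and 0 lower in WAT and 5 higher and 1 lower in lung. Besides Il33 itself these were Il6, an inducer of acute phase responses, at 27.8, 94.3 and 50.8 RPKM in the Il33- libraries, 94.8, 159.7 and 133 RPKM in Il33+ WAT-MSC and 161, 180.2 and 404 RPKM in lung Il33+ MSC (log2 difference 1.71, standard error 0.36, limma adjusted p = 0.0116), Cxcl12, the ligand of CXCR4, at 1.24 (limma adjusted p = 0.0032), and Icosl, the ligand of ICOS on ILC2 and T cells, at 1.06 (limma adjusted p = 0.0204). Il6, Cxcl12 and Icosl passed in lung and not in WAT, with differences of 1.29 in WAT and 2.13 in lung for Il6, 0.31 in WAT and 2.17 in lung for Cxcl12 and -0.21 in WAT and 2.32 in lung for Icosl. The eosinophil attractant Ccl11 was the lower gene, at 652, 1212 and 861 RPKM in the Il33- libraries, 297, 570.1 and 431 RPKM in Il33+ WAT-MSC and 283, 269.5 and 412 RPKM in lung Il33+ MSC (log2 difference -1.27, standard error 0.26, limma adjusted p = 0.00864). Il33- cells held the higher Ccl11 level in the pooled comparison, but its WAT difference taken by itself, -1.07, did not pass (limma adjusted p = 0.0946). Il6 was no longer past the threshold without Il33- replicate 1, and Ccl11 without Il33- replicate 2 (limma adjusted p from 0.00271 to 0.0611 over the settings for Il6 and from 0.00028 to 0.0605 for Ccl11).

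Of 29 tested adventitial progenitor genes, 11 were higher and 2 lower, with a median of 0.75. Taken by tissue, the counts were 12 higher and 0 lower in WAT and 5 higher and 4 lower in lung. The share of all genes tested with a higher mean was not counted, and the median difference over all genes was -0.0023 in WAT and -0.045 in lung. In this list the mean was higher than in Il33- cells for 28 of the 29 genes in WAT and for 18 in lung, counts that were not read against a background. After Pi16 the largest were Limch1, a calponin-homology and LIM domain protein, at 2.14 (limma adjusted p = 7.07e-05), Prg4, the lubricin gene, at 2.01 (limma adjusted p = 0.00182), and Sema3c, a secreted semaphorin, at 1.79 (limma adjusted p = 0.00025). Sema3c was at 5.88, 6.58 and 7.69 RPKM in the Il33- libraries, 26.4, 47.2 and 26.2 RPKM in Il33+ WAT-MSC and 18.9, 19.4 and 23.6 RPKM in lung Il33+ MSC, without overlap. Prg4 was at 0.45, 0.8 and 0.04 RPKM in the Il33- libraries, 4.49, 5.82 and 2.42 RPKM in Il33+ WAT-MSC and 7.55, 3.39 and 5.57 RPKM in lung Il33+ MSC, also without overlap and at low levels. The lower genes of the list were Thy1 and Smpd3, which passed in lung and not in WAT. The list of adipogenic commitment and lipid storage genes moved both ways, with 4 of 28 higher and 6 lower (median -0.01). Counted by tissue, there were 2 higher and 5 lower in WAT and 4 higher and 6 lower in lung. Its lower genes were Agt, Plin2, Ggt5, Aoc3, Col15a1 and Lpl. Aoc3, a vascular and adipose amine oxidase, was at 133, 204 and 235 RPKM in the Il33- libraries, 80.1, 86.1 and 93 RPKM in Il33+ WAT-MSC and 15.8, 14.3 and 19.3 RPKM in lung Il33+ MSC (log2 difference -2.26, standard error 0.20, limma adjusted p = 2.05e-05). Lpl, lipoprotein lipase, had differences of -0.58 in WAT and -2.34 in lung, of which the WAT value did not pass. Pparg, the master regulator of adipogenesis, did not reach the filter, at 0.58, 3.4 and 3.13 RPKM in the Il33- libraries, 0.25, 0.04 and 0.63 RPKM in Il33+ WAT-MSC and 0.21, 0 and 0.63 RPKM in lung Il33+ MSC. The adipocyte marker list had 0 of 5 tested genes called by limma and 2 at an unadjusted p under 0.05, 1 higher and 1 lower, with Car3 at -2.14 (limma adjusted p = 0.0716) and Fabp4 at -1.01 (limma adjusted p = 0.269). The higher genes of the adipogenic list were Sparcl1, Apoe, Zfp423 and Gpc3, of which Zfp423 is a regulator of preadipocyte commitment. Apoe and Gpc3 passed in lung and not in WAT (-0.49 in WAT and 2.88 in lung for Apoe), and Zfp423 passed in WAT and not in lung (1.35 in WAT and 0.84 in lung).

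Of 21 tested collagens 3 were higher and 7 lower (median -0.26), with 1 higher and 4 lower in WAT and 4 higher and 8 lower in lung. The lower ones were the basement membrane collagens Col4a1 and Col4a2, the related Col15a1, the fibrillar Col5a3, and Col6a1, Col6a2 and Col6a3. The fibrillar Col1a1 and Col1a2 and the fibril-associated Col14a1 were higher. Col1a1, Col1a2 and the 3 Col6 genes passed in lung and not in WAT. Col4a1 was at 274, 392 and 334 RPKM in the Il33- libraries, 99.4, 115 and 114 RPKM in Il33+ WAT-MSC and 39.3, 53.2 and 72.2 RPKM in lung Il33+ MSC, in 3 bands without overlap (log2 difference -2.10, standard error 0.20, limma adjusted p = 3.77e-05). Col15a1 was at 264, 245 and 233 RPKM in the Il33- libraries, 94.4, 79.6 and 121 RPKM in Il33+ WAT-MSC and 47.3, 32.7 and 37.4 RPKM in lung Il33+ MSC (log2 difference -1.99, standard error 0.18, limma adjusted p = 2.67e-05). Col5a3 was at 51.9, 68.3 and 57.4 RPKM in the Il33- libraries, 21.4, 11.7 and 22.8 RPKM in Il33+ WAT-MSC and 3.6, 3.14 and 1.92 RPKM in lung Il33+ MSC (log2 difference -2.81, standard error 0.24, limma adjusted p = 1.93e-05). Col1a1 was at 587, 557 and 628 RPKM in the Il33- libraries, 823, 569.8 and 1578 RPKM in Il33+ WAT-MSC and 1658, 2143 and 2646 RPKM in lung Il33+ MSC (log2 difference 1.23, standard error 0.29, limma adjusted p = 0.0203). Its values in Il33+ WAT-MSC overlapped those of Il33- cells. Col1a1 lost its call in 6 of the 19 alternative settings, among them those without any 1 of the Il33- libraries. Other basement membrane genes among the 66 lower genes were picked out after their values were seen. They were Hspg2, the perlecan core protein, with differences of -1.70 in WAT and -1.71 in lung, Nid2, nidogen-2, with -1.29 in WAT and -3.15 in lung, and Lamb1, a laminin chain, with -1.09 in WAT and -2.05 in lung. Hspg2 was at 112, 181 and 172 RPKM in the Il33- libraries, 62.6, 23.4 and 66 RPKM in Il33+ WAT-MSC and 43, 51.5 and 43.1 RPKM in lung Il33+ MSC. Of 27 matrix proteases and inhibitors 3 were higher and 4 lower (median -0.13), with 2 higher and 3 lower in WAT and 5 higher and 3 lower in lung. The higher ones were Mmp3 and the metalloproteinase inhibitors Timp1 and Timp3, at 2.76 (limma adjusted p = 0.00109) and 2.07 (limma adjusted p = 2.67e-05). Neither inhibitor passed in WAT, where Timp1 was at 1.95 (limma adjusted p = 0.0522) and Timp3 at 0.73 (limma adjusted p = 0.131). The lower ones were the metalloproteinases Adam12, Adam19 and Adamts12 and the non-catalytic disintegrin Adam23. Adam12 was at -2.35 (limma adjusted p = 0.000288) and did not pass in WAT (-1.37). Adam23 had differences of opposite sign, -2.83 in WAT and 0.64 in lung.

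Signalling lists had more higher than lower calls. Of 18 Wnt genes 4 were higher and 1 lower (median 0.37), with 3 higher and 1 lower in WAT and 5 higher and 2 lower in lung. Wnt2b, a ligand, was at 1.75, 4.78 and 4.76 RPKM in the Il33- libraries, 25.4, 26.5 and 28.5 RPKM in Il33+ WAT-MSC and 19.6, 25.7 and 13.9 RPKM in lung Il33+ MSC (log2 difference 2.39, standard error 0.27, limma adjusted p = 0.000125), and Dkk3, a secreted member of the Dickkopf family, at 1.93 (limma adjusted p = 1.93e-05). Rspo3, an R-spondin that amplifies Wnt signals, went the other way, at 21.5, 23.5 and 36.1 RPKM in the Il33- libraries, 8.16, 7.59 and 9.14 RPKM in Il33+ WAT-MSC and 0.88, 0.79 and 0.78 RPKM in lung Il33+ MSC (log2 difference -2.74, standard error 0.22, limma adjusted p = 1.08e-05). Of 26 BMP and TGF-beta genes 7 were higher and 1 lower (median 0.53), with 4 higher and 0 lower in WAT and 9 higher and 1 lower in lung. Besides Chrdl1 these included the ligand Bmp4, at 5.88, 20.9 and 11.5 RPKM in the Il33- libraries, 47.1, 22.2 and 57.7 RPKM in Il33+ WAT-MSC and 75.6, 68.7 and 97.3 RPKM in lung Il33+ MSC (log2 difference 2.21, standard error 0.35, limma adjusted p = 0.00172), so that a ligand and an antagonist were higher in the same populations. Bmp3 was higher at 1.97, carried by lung (0.69 in WAT and 3.25 in lung). Of 13 IGF genes 7 were higher and 1 lower (median 0.93), with 3 higher and 1 lower in WAT and 9 higher and 1 lower in lung. Igf2, a growth factor, was at 0.07, 0.84 and 0.66 RPKM in the Il33- libraries, 2.28, 7.69 and 4.56 RPKM in Il33+ WAT-MSC and 23.3, 15.1 and 28.8 RPKM in lung Il33+ MSC (log2 difference 2.90, standard error 0.33, limma adjusted p = 0.000149). Igfbp5, an IGF-binding protein, was at 43.2, 67.9 and 69.5 RPKM in the Il33- libraries, 179, 171 and 195 RPKM in Il33+ WAT-MSC and 301, 336 and 213 RPKM in lung Il33+ MSC (log2 difference 1.92, standard error 0.21, limma adjusted p = 7.60e-05). The protease Pappa was the lower gene, with differences of -1.73 in WAT and -1.33 in lung. Stc1 was higher at 1.88, again by its lung level (0.54 in WAT and 3.21 in lung).

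Complement genes were called higher or not at all. Of 18 tested, 8 were higher and 0 lower by limma, with a median of 0.80, and by tissue 3 higher and 0 lower in WAT and 7 higher and 0 lower in lung; at an unadjusted p under 0.05, 0 of them were lower as well. Cfb, factor B, a protease of the alternative pathway, was at 3.72, 11 and 13.4 RPKM in the Il33- libraries, 29.8, 20.4 and 43.9 RPKM in Il33+ WAT-MSC and 88, 99.5 and 108 RPKM in lung Il33+ MSC (log2 difference 2.56, standard error 0.33, limma adjusted p = 0.000324). C4b was at 2.62 (limma adjusted p = 0.000149), C2 at 1.28 (limma adjusted p = 0.00201), and for both the difference in WAT did not pass (1.01 and 0.79). C4b shares reads with its near-identical copy C4a, so its value is uncertain. C7 is a leading gene but not part of this count.

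Of 19 immune-regulatory surface ligands 3 were higher and 1 lower (median 0.38), with 3 higher and 0 lower in WAT and 6 higher and 1 lower in lung. Besides Cd200 these were Cd55, a complement inhibitor, at 1.20 (limma adjusted p = 0.00546) with 2.04 in WAT and 0.37 in lung, past the test in WAT alone, and F11r, a junctional adhesion molecule, at 1.51 (limma adjusted p = 0.0105); Jam2 was lower at -1.05 (limma adjusted p = 0.00201), and not past the test in WAT (-0.74). Of 19 chemokines and atypical receptors 5 were higher and 3 lower (median 0.11), with 2 higher and 0 lower in WAT and 5 higher and 3 lower in lung. Ccl8, a ligand of CCR8 in mice, was at 0, 2.46 and 0.98 RPKM in the Il33- libraries, 3.16, 11.7 and 3.59 RPKM in Il33+ WAT-MSC and 14.2, 17.2 and 29.9 RPKM in lung Il33+ MSC (log2 difference 2.57, standard error 0.43, limma adjusted p = 0.00257), and Cxcl9, an interferon-gamma-induced ligand of CXCR3, at 7.71, 15.4 and 17.7 RPKM in the Il33- libraries, 2.6, 3.31 and 5.28 RPKM in Il33+ WAT-MSC and 0.38, 2.29 and 4.77 RPKM in lung Il33+ MSC (log2 difference -1.91, standard error 0.41, limma adjusted p = 0.0125). Cxcl13, the attractant of B cells, and Ackr2 were higher at 1.65 and 1.59. These 4 passed in lung and not in WAT, where Ccl8 was at 1.71, Cxcl9 at -1.59, Cxcl13 at 0.28 and Ackr2 at 1.29. Of 14 NF-kB genes 2 were higher and 0 lower by limma (median 0.42), with 0 higher and 0 lower in WAT and 3 higher and 0 lower in lung. At an unadjusted p under 0.05, 5 were higher and 1 lower in the pooled comparison. The 2 genes called higher by limma in that comparison were the inhibitors Tnfaip3, which encodes A20, at 1.45 (limma adjusted p = 0.00201), and Nfkbia, which encodes IκBα, at 0.98 (limma adjusted p = 0.0103). Of 28 immediate early genes, which respond to tissue dissociation, 2 were higher (Ier3 and Maff, at 1.19 and 1.11) and 1 lower (Klf2, at -0.76), with a median of -0.02. Of 26 interferon-response genes 1 was higher (Ifitm1, 1.72) and 1 lower (Irgm1, -1.18), with a median of -0.08. Irgm1 lost its call in 10 of the 19 alternative settings, Klf2 in 6, Maff in 3 and Ier3 and Ifitm1 in 1 each. In WAT alone limma called 0 genes of the NF-kB, immediate early and interferon lists.

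Transcription factors of mesenchyme were divided, with 10 of 44 higher and 8 lower (median -0.03). The counts by tissue were 4 higher and 1 lower in WAT and 10 higher and 8 lower in lung. Foxc1, a forkhead factor of perivascular mesenchyme, was at 0.34, 2.37 and 0.7 RPKM in the Il33- libraries, 12.4, 15.7 and 11.2 RPKM in Il33+ WAT-MSC and 6.81, 5.11 and 8.8 RPKM in lung Il33+ MSC (log2 difference 2.40, standard error 0.30, limma adjusted p = 0.000312). Gli1, the effector of hedgehog signalling that marks perivascular progenitors, was at 0.12, 0.78 and 1.79 RPKM in the Il33- libraries, 5.9, 4.02 and 5.48 RPKM in Il33+ WAT-MSC and 13.1, 9.79 and 11 RPKM in lung Il33+ MSC (log2 difference 2.28, standard error 0.29, limma adjusted p = 0.000363). With Meox2 these 2 passed in each tissue. Ebf3, a factor of adipose and marrow stroma, was lower at -2.45 (limma adjusted p = 0.000162), with a WAT difference of -1.06 that did not pass against -3.84 in lung. Sox9, a chondrogenic factor, was lower at -1.65 (limma adjusted p = 0.00131), with -1.83 in WAT and -1.48 in lung. Tbx5 and Tbx4, factors of lung mesenchyme and the forelimb or hindlimb, were called higher in the pooled comparison, but only on their lung level: Tbx5 was at 0, 0.01 and 0.05 RPKM in the Il33- libraries, 0.02, 0.02 and 0.01 RPKM in Il33+ WAT-MSC and 11.8, 13.8 and 9.46 RPKM in lung Il33+ MSC. Of 28 axon guidance genes 5 were higher and 2 lower (median 0.29), with 3 higher and 2 lower in WAT and 8 higher and 3 lower in lung, led by Sema3d, a secreted semaphorin (1.90 (limma adjusted p = 8.27e-05)), the ephrin receptor Epha3 (1.89 (limma adjusted p = 0.00256)) and, among the lower, the semaphorin receptor Plxnd1 (-1.81 (limma adjusted p = 0.00226)).

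**Figure D4:**
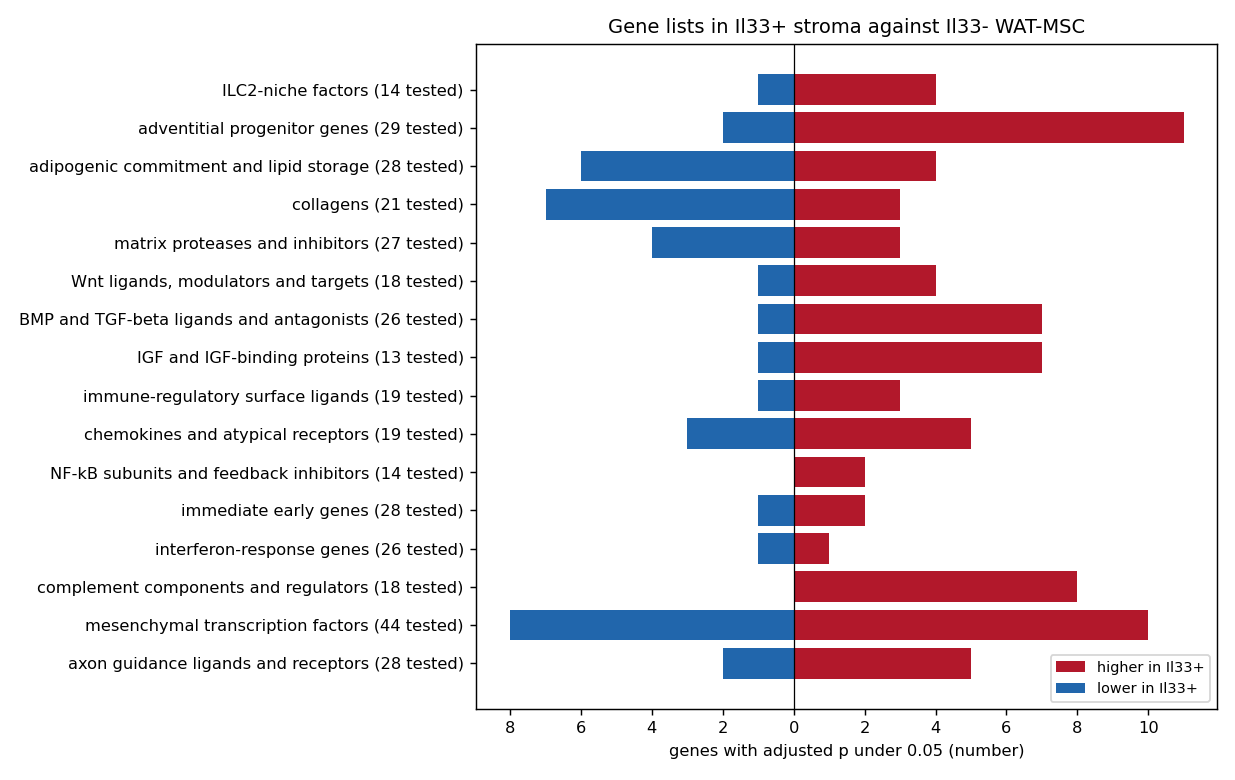
Number of genes of each list with a limma adjusted p under 0.05 in Il33+ stroma of both tissues against Il33- WAT-MSC, higher to the right (red) and lower to the left (blue), with the number of genes tested beside each name. The complement list has 8 higher and 0 lower genes, the adventitial progenitor list 11 and 2, and the collagen list 3 and 7.

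Other genes of the 146 that passed in each tissue were picked out after their values were seen, to show what they encode. Lepr, the leptin receptor, was at 0.12, 1.42 and 1.05 RPKM in the Il33- libraries, 4.75, 6.47 and 6.4 RPKM in Il33+ WAT-MSC and 24.9, 27.3 and 28.2 RPKM in lung Il33+ MSC, with differences of 1.95 in WAT and 3.97 in lung. Mgp, matrix Gla protein, an inhibitor of calcification, was at 51.2, 57.2 and 83.6 RPKM in the Il33- libraries, 259, 129.8 and 289.9 RPKM in Il33+ WAT-MSC and 1161, 1415 and 2403 RPKM in lung Il33+ MSC (1.75 in WAT and 4.64 in lung). Art4 and Mgp lie 14835 bases apart on chromosome 6 (GRCm38, chr6:136848451-136857600 and chr6:136872435-136875823). Nox4, a hydrogen peroxide-producing NADPH oxidase, was at 2.38, 2.89 and 2.9 RPKM in the Il33- libraries, 16, 10.4 and 13.9 RPKM in Il33+ WAT-MSC and 14.4, 15.3 and 12.8 RPKM in lung Il33+ MSC. Ntrk2, the receptor for BDNF, differed by 1.64 in WAT and 1.39 in lung, and Gfra2, a co-receptor of Ret for neurturin, by 1.57 in WAT and 3.14 in lung, so that Gfra2 was higher where Ret was lower. Flt3l, the dendritic cell growth factor, differed by 1.45 in WAT and 2.16 in lung. Among the lower genes Lifr, the receptor for leukaemia inhibitory factor, was at 30.3, 37.2 and 31.3 RPKM in the Il33- libraries, 10.7, 10.1 and 9.89 RPKM in Il33+ WAT-MSC and 7.16, 6.31 and 4.27 RPKM in lung Il33+ MSC (-1.59 in WAT and -2.31 in lung). Aldh1a2, an enzyme of retinoic acid synthesis, was at 78.9, 103 and 102 RPKM in the Il33- libraries, 31.3, 27.8 and 50.8 RPKM in Il33+ WAT-MSC and 33.5, 29.9 and 47.8 RPKM in lung Il33+ MSC (-1.38 in WAT and -1.35 in lung). Col4a1 and Col4a2 overlap at their ends on chromosome 8 (GRCm38, chr8:11198423-11312889 and chr8:11312805-11449287), and both were lower in each tissue.

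The levels in the other sorted populations of the series, which no part of the comparison used, were read for the leading genes. In WAT endothelial cells (n = 3) Cd200 had a mean of 55 RPKM, C7 107 RPKM, Tspan18 42.8 RPKM, Pi16 42.7 RPKM and Fmod 32.6 RPKM. Shisa3 had a mean of 4.23 RPKM there and Mmp3 7.3 RPKM, both below their means in both Il33+ groups. The endothelial libraries also held stromal transcripts. Col1a1 was at 147, 315 and 730 RPKM in them, and the list of 13 stromal and sort markers summed to 2447 to 4410 RPKM. The part of stromal RNA in the endothelial levels was not tested. In lung epithelial cells Shisa3, Chrdl1, Meox2, Omd and Stc2 had means of 0.337, 0.56, 0.36, 0.717 and 0.593 RPKM. These 5 genes were thus below 1 RPKM in the epithelial cells. Cd200 and Tspan18 had means of 15.1 and 21.7 RPKM there, and Meox2 had a mean of 23.8 RPKM in endothelial cells. Of the leading lower genes, Trf had a mean of 32.4 RPKM, Plin2 14.4 RPKM and Elfn1 5.43 RPKM in lung epithelial cells. In endothelial cells the means were 14.7 RPKM for Adap2, 8.29 RPKM for Tusc5 and 4.48 RPKM for Ret.

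**Figure D5:**
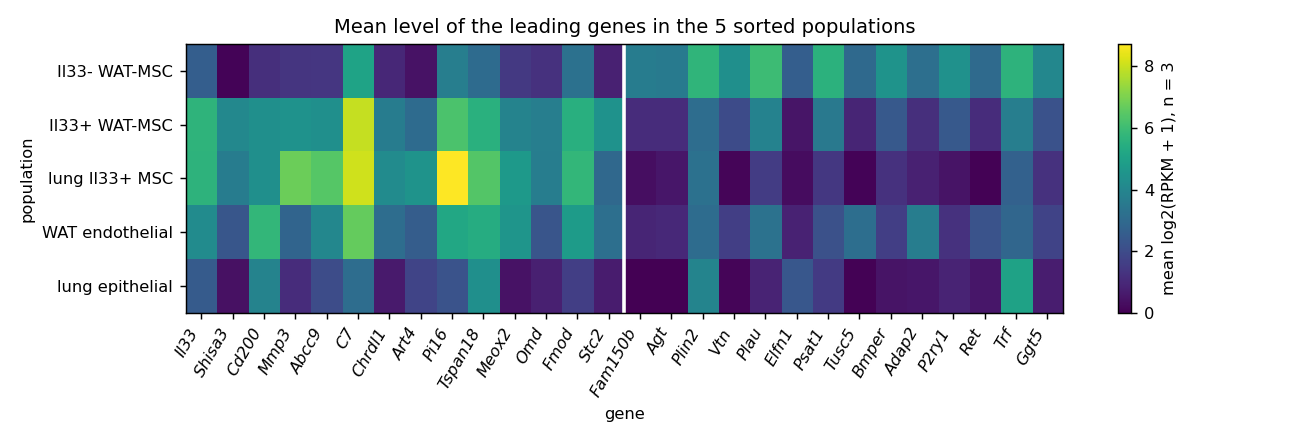
Mean log2(RPKM + 1) of Il33 and 27 of the 28 leading genes in the 5 sorted populations (n = 3 each); the white line divides the higher from the lower genes. C7, Tspan18, Pi16 and Fmod are also bright in WAT endothelial cells, where their means were 107, 42.8, 42.7 and 32.6 RPKM, and most leading genes are dark in lung epithelial cells. The endothelial libraries also held the stromal gene Col1a1, at 147 to 730 RPKM.

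Of the genes past the pooled test, 17 of the 331 higher and 9 of the 259 lower had tissue differences of opposite sign. Chil3, the chitinase-like protein Ym1 of alveolar macrophages, was at 0.02, 0.34 and 0.06 RPKM in the Il33- libraries, 0.04, 0.02 and 0.08 RPKM in Il33+ WAT-MSC and 56.9, 33.7 and 43.7 RPKM in lung Il33+ MSC, and Ear1, an eosinophil-associated ribonuclease with near-identical copies in the genome, at 0.64, 0.11 and 0 RPKM in the Il33- libraries, 0, 0 and 0 RPKM in Il33+ WAT-MSC and 13.6, 7.64 and 15.1 RPKM in lung Il33+ MSC. Both belong to the leukocyte list whose summed level was higher in the lung libraries. Ackr4, a scavenging chemokine receptor, was at 22.4, 13.8 and 21.6 RPKM in the Il33- libraries, 33.6, 46.3 and 40.3 RPKM in Il33+ WAT-MSC and 0.4, 0.18 and 0.3 RPKM in lung Il33+ MSC, which put it lower in the pooled comparison on its lung values. Hoxc8, a homeobox gene of posterior body position, was at 11.4, 12.2 and 8.93 RPKM in the Il33- libraries, 12.1, 15.2 and 19.6 RPKM in Il33+ WAT-MSC and 0.15, 0.08 and 0.12 RPKM in lung Il33+ MSC. Adam23, a non-catalytic disintegrin, was lower in WAT by -2.83 and was at 8.51, 8.67 and 8.97 RPKM in the Il33- libraries, 0.2, 0.63 and 0.3 RPKM in Il33+ WAT-MSC and 10.0, 16.1 and 17.5 RPKM in lung Il33+ MSC. The lung libraries lay above the Il33- libraries, with a difference that did not pass (0.64, 95% interval 0.04 to 1.25, limma adjusted p = 0.211).

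Of the 129 genes higher in Il33+ WAT-MSC, 32 were lower in lung Il33+ MSC than in Il33+ WAT-MSC, and of the 86 lower genes 7 were higher in lung. Those with the largest tissue difference among the 32 were Upk1b, Myoc and Gpm6a. Upk1b, a uroplakin, was at 0, 3.48 and 0.7 RPKM in the Il33- libraries, 5.35, 25.4 and 17.9 RPKM in Il33+ WAT-MSC and 0.33, 1.57 and 0.52 RPKM in lung Il33+ MSC, and Gpm6a, a membrane glycoprotein, at 0.01, 1.15 and 0.72 RPKM in the Il33- libraries, 3.92, 13.8 and 11.3 RPKM in Il33+ WAT-MSC and 0.14, 0.55 and 0.24 RPKM in lung Il33+ MSC. Both are on the mesothelial list, whose summed level was higher in Il33+ WAT-MSC. Myoc, myocilin, was at 2.2, 3.96 and 3.51 RPKM in the Il33- libraries, 14.8, 6.61 and 14.5 RPKM in Il33+ WAT-MSC and 0.76, 0.18 and 0.87 RPKM in lung Il33+ MSC. Among the 7, Mylk, myosin light chain kinase, was at 10.9, 13.6 and 22.6 RPKM in the Il33- libraries, 2.15, 5.05 and 3.58 RPKM in Il33+ WAT-MSC and 21.3, 20.3 and 17.7 RPKM in lung Il33+ MSC, and Laptm5, a lysosomal protein of leukocytes, at 6.04, 1.98 and 2.73 RPKM in the Il33- libraries, 0.66, 0.51 and 0.21 RPKM in Il33+ WAT-MSC and 6.19, 6.28 and 7.63 RPKM in lung Il33+ MSC. Of the 32 genes, 3 were among the 80 that passed higher in each tissue, Stc2 included, and of the 7, 1 was among the 66 that passed lower in each.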

How the data were processed

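RNA was sequenced from 3 libraries each of Il33+ WAT-MSC, lung Il33+ MSC and Il33- WAT-MSC. The authors sorted the cells, amplified the RNA with a kit that does not mark strand, used Tophat2 within Partek Flow to align the reads (mm10, per the submitters' processing notes) and deposited RPKM values for 12698 transcripts. Their filter on low transcripts, model and threshold are not given in the sources used here. RPKM is relative to transcript length and mapped reads, so abundant transcripts lower the other values of a library. Alignments ranged from 43825859 to 57320368 per library. Read counts were not used, so the counting error of a value is unknown.

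RPKM was summed per gene symbol (1786 of 10222 had more than 1 transcript). The 3 group means entered a linear model on log2(RPKM + 1) in limma 3.58.1 (R 4.3.3), with eBayes and a mean-variance trend, and the fit was tested on simulated data. Tables were handled in Python 3.11.15 with pandas 2.3.3 and numpy 2.4.6, the permutation test was run in scipy 1.17.1 and plots were drawn in matplotlib 3.10.9. Gene positions came from an annotation of GRCm38. The alternatives were a 2-group model, the replicate number or the lane as a term, all 15 libraries in one fit, median-ratio and quantile scaling, a pseudocount of 0.1, no filter, a filter at an RPKM of 5, the most abundant transcript of each gene and each library left out. The libraries were run in 2 lanes, and each population was present in both.

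Genes were named by a rule. It took Il33 and, per direction, the 14 genes past the pooled test with no overlap, the same sign in both tissues and the largest smaller tissue difference. From each list it took up to 4 called genes with the largest difference, or up to 2 where none was called. It also took, per direction, the 3 genes with the largest tissue difference among those of opposite sign. The same was done among genes called in WAT whose lung minus WAT difference was called in the opposite direction. Values of 2 genes that the rule took are not reported here. Genes named outside it were chosen after their values were seen. The members and gene lists were chosen with earlier results of these data known. Sequences came from RefSeq (GRCm38.p6).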

Additional observations from a re-analysis of the deposited data

Results flagged for a closer look

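The lung minus WAT contrast of the Il33+ libraries differed between tissues for 10 of the 28 leading genes, 9 of which are given here (limma, log2(RPKM + 1)). It was 2.34 for Mmp3, 2.09 for Abcc9, 1.46 for Art4 and 2.47 for Pi16, all higher in lung. It was -1.50 for Stc2, -1.86 for Vtn, -2.31 for Plau, -2.11 for Psat1 and -1.96 for P2ry1. Among the genes whose tissue differences had opposite signs it was 5.42 for Chil3, 3.66 for Ear1, 3.63 for Tbx5, -4.98 for Ackr4, -3.87 for Hoxc8 and 3.47 for Adam23. A further set was called in WAT and had a lung minus WAT difference called in the opposite direction. In it the contrast was -3.08 for Upk1b, -2.97 for Myoc, -2.89 for Gpm6a, 2.41 for Laptm5 and 2.22 for Mylk. That set does not require opposite signs against the Il33- cells. Groups of 3 libraries are too small for a test of single outlying libraries.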

How the results depend on the processing

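No lung Il33- population was compared, and 3 Il33- libraries served both tissues. With all 15 libraries in one fit, 374 genes passed the pooled test in place of 590, 112 in place of 215 passed in WAT, 81 in place of 146 passed in each tissue in the same direction and 360 in place of 564 passed the pooled test with the same sign. A 2-group model, in which the tissue difference counts as error, called 228. With each library left out in turn, the counts were 404 to 608 pooled, 108 to 185 in WAT, 487 to 942 in lung, 225 to 579 for lung against WAT, 78 to 133 in each tissue and 394 to 588 pooled with the same sign. The WAT count moved by more than 1.5 times without Il33+ WAT-MSC replicate 1 (141) or 3 (108) or Il33- replicate 2 (135) or 3 (124). The counts of both lung contrasts moved that far without any single lung library (511, 487 and 512 against the Il33- cells, and 263, 225 and 250 against WAT). Without Il33- replicate 1 higher genes were 45.1% of the pooled calls, against 56.1%. The Il33 difference was 2.91 to 3.22 with each library left out, and without an Il33- library the exact permutation p cannot fall below 0.0714, so that these 3 settings (3.22, 2.95 and 2.97) missed the threshold by design. Same-numbered libraries did not deviate together (correlations of deviations from -0.0662 to 0.0987). Such correlations cannot show whether same-numbered samples came from the same sort, so pairing was neither assumed nor excluded. With the replicate block the counts were 648 pooled, 248 in WAT, 876 in lung, 513 for lung against WAT, 170 in each tissue and 619 with the same sign. Of the other 77 named genes, 1280 of 1433 gene settings gave the same outcome as the main fit, called or not called. In 142 a call was lost, in 8 a call was gained and in 3 the direction turned. All 3 of the last were Myoc, whose pooled difference was 0.08. Genes not called in either fit are thus among the 1280. Settings in which a gene did not reach the filter were not counted. The causes were not tested.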
